A study of Mus musculus with 2 samples.

Results

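The cells described here are the erythroid cells of the E13.5 mandibular prominence, the embryonic tissue from which the lower jaw grows. They are the 207 cells that the authors' deposited metadata assign to cluster 13 of the E13.5 library. That is 3.28% of the 6318 cells of this library, and the 2 libraries of the study hold 13417 cells in all. Both libraries came from wild-type CD1 mouse embryos profiled by droplet-based 10x RNA sequencing, 1 library for embryonic day 13.5 (E13.5) and 1 for embryonic day 11.5 (E11.5). Each used 12.5 mg of minced mandibular tissue, which a bacterial protease split into cells at 5 mg/ml for E13.5 and at 3 mg/ml for E11.5. How many embryos gave each library, and their litters and sex, is not stated in the sources used here. The E11.5 cells set beside cluster 13 are the 456 erythroid cells of E11.5 clusters 11 and 12 (250 and 206 cells). With 1 library per stage no difference has a replicate check and no p-value is given. Every interval is at the 95% level and reflects only the error of counting. Stage, library, protease concentration and the sex of the embryos cannot be told apart.

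Red blood cells of the mouse embryo come from separate waves. Primitive erythroid cells arise in the yolk sac, enter the blood while they still have a nucleus and mature in the circulation, whereas definitive erythroid cells mature in the fetal liver and lose their nucleus before they enter the blood. Haemoglobin joins alpha-like with beta-like chains. Hba-x (zeta), Hbb-y (epsilon y) and Hbb-bh1 (beta h1) encode embryonic chains, and Hba-a1, Hba-a2, Hbb-bs and Hbb-bt encode adult chains. Primitive cells also make some adult globin as they mature, while definitive cells of the mouse make adult globin.

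The globin genes lie in clusters on chromosomes 7 and 11. The 150 bases before the start site of 5 of them are shown because the balance of embryonic and adult globin set cells apart in these data. The sequences are from RefSeq, build GRCm38.p6, and run 5′ to 3′ on the strand of the gene. Capitals mark every match to the CACCC box, to GATAA (the letters of GATA factors), to the CCAAT box or to TATAA (the TATA box) on either strand, and no match of one motif overlaps a match of another. The Hbb-y window is chr7:103853208-103853357 (minus strand), Hbb-bs is chr7:103827929-103828078 (minus), Hbb-bt is chr7:103813924-103814073 (minus), Hba-x is chr11:32276450-32276599 (plus) and Hba-a1 is chr11:32283522-32283671 (plus).
Hbb-y: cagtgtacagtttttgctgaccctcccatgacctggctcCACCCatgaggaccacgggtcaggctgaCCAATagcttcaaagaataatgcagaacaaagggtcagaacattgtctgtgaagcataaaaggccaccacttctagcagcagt
Hbb-bs: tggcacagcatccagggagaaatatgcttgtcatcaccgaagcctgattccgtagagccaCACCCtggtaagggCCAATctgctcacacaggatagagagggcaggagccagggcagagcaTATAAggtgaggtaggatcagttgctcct
Hbb-bt: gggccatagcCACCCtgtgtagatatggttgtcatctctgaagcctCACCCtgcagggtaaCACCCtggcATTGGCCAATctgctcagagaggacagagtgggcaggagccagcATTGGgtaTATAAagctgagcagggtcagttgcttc
Hba-x: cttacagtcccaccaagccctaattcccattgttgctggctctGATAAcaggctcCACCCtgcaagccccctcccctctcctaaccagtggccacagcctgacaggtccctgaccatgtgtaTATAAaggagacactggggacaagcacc
Hba-a1: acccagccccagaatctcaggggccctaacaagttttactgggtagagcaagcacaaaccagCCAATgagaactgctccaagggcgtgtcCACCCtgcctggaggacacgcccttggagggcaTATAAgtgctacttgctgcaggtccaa
CACCC, the letters of a Klf1-type box, stands in all 5 windows, with 3 matches in Hbb-bt and 1 in each other window. Of the 32851 RefSeq windows of this length, 37.4% hold it. CCAAT stands in the windows of Hbb-y, Hbb-bs, Hbb-bt and Hba-a1 (24.5% of all windows), TATAA in those of Hbb-bs, Hbb-bt, Hba-x and Hba-a1 (14.2%), and GATAA in that of Hba-x (13.3%). These matches describe the letters of the windows and not sites of binding.

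The 4 genes that mark the label of cluster 13 dominated its RNA. Hba-a1, Hbb-bs, Hbb-y and Alas2 made up 772857 of each 1000000 UMIs (unique transcript counts) of cluster 13, against 4902 of each 1000000 in the other 6111 E13.5 cells. Haemoglobin took 88.2% of the 3584624 UMIs of cluster 13, so all further levels are counts per 1000000 UMIs with haemoglobin left out of the total (CPM). On that scale 12 erythroid markers such as Slc4a1 and Epb42 summed to 12874 CPM in cluster 13, against 41.3 CPM in the other E13.5 cells. Markers of other blood cells, vessel cells, glia and neurons were near 0 in cluster 13. Their sums were 11.8 CPM for megakaryocytes, 11.8 for blood progenitors, 42.6 for macrophages, 2.37 for mast cells, 49.7 for endothelium, 11.8 for glia and 18.9 for neurons. Of the markers in the table, 7 of 9, 5 of 7, 4 of 11, 4 of 5, 2 of 10, 5 of 8 and 4 of 7 were at 0 in these lists. Markers of the surrounding tissue, which free RNA can carry into any droplet, summed to 765 CPM for mesenchyme, 786 for epithelium and 663 for muscle, with 0, 0 and 1 of 10 markers at 0. In the other E13.5 cells the same sums were 2288, 1315 and 3000 CPM, and in the E11.5 erythroid cells they were 818, 398 and 115 CPM. The epithelial and muscle sums thus moved with stage, and their part in the results on stage was not tested. The libraries shared 71 cell barcodes, of which 2 belonged to cluster 13 and 0 to the erythroid cells of both stages. Xist, which silences an X chromosome in females, stood at 411 CPM in the other E13.5 cells and at 0.347 CPM in the other E11.5 cells.

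The cells of cluster 13 fell into 2 separate sets by their beta-like globin, with no cell between them. The embryonic share is the share of Hbb-y and Hbb-bh1 among all beta-like UMIs of a cell. It was over 50% in 111 cells, called embryonic-globin cells from here on, and under 10% in 96 cells, called adult-globin cells. No cell lay between 10% and 50%. Among the embryonic-globin cells the lowest share was 54.9%, the median 85.1% and the highest 96.5%, and the next cells above the lowest had 71.2% and 73.9%. Among the adult-globin cells the median share was 0.108%, 95 of the 96 cells were under 1%, and a single cell stood at 6.56% with 699 embryonic and 9955 adult beta-like UMIs. That cell had no Hba-x UMI. The sets were chosen by these values, which are given as a description. Drawing 1000 beta-like UMIs from each cell gave the same 111 and 96 cells.

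**Figure D1:**
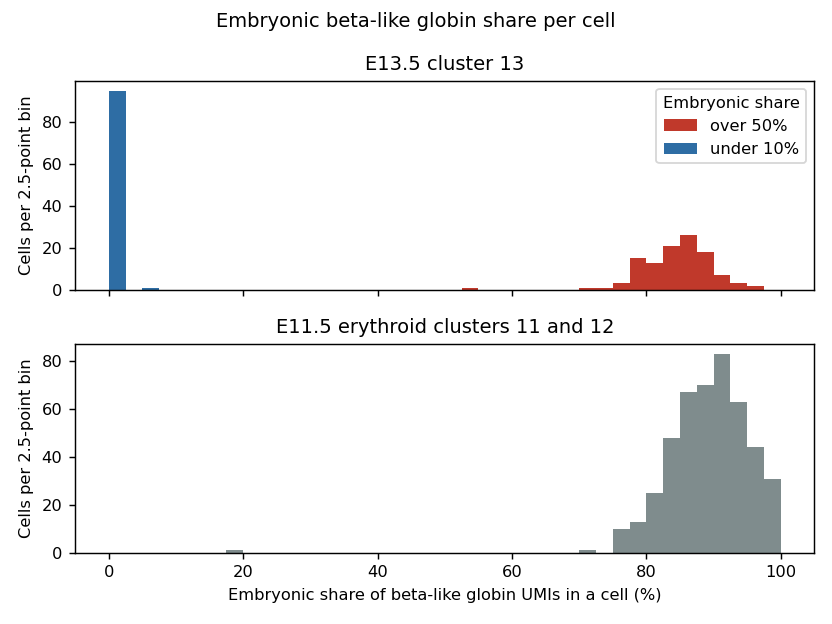
Histograms of the embryonic share of beta-like globin UMIs per cell, in bins of 2.5 percentage points, for the 207 cells of E13.5 cluster 13 (upper panel; red, share over 50%; blue, share under 10%) and for the 456 erythroid cells of E11.5 (lower panel). The E13.5 cells stand in a tall bar near 0% and a broad peak around 85%, and the E11.5 cells form a broad peak around 90%.

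The E11.5 erythroid cells held the embryonic kind. Their median embryonic share was 89.8%, and all but 1 of the 456 cells were over 50%. The exception, a cell of cluster 11, had a share of 17.6% from 479 embryonic and 2250 adult beta-like UMIs. The E13.5 embryonic-globin cells overlapped these cells but stood lower as a set, with 5th and 95th percentiles of 77.7% and 92.0% at E13.5 against 79.6% and 98.2% at E11.5.

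Counts per cell differed far more for the embryonic than for the adult genes. Embryonic-globin cells had a median of 10466 embryonic beta-like UMIs, adult-globin cells had a median of 7, and the other cells of the same library, of types that should lack these genes, had a median of 6. The 5th and 95th percentiles were 2 and 17.25 in adult-globin cells and 2 and 14 in those other cells. Adult beta-like UMIs had a median of 1914 in embryonic-globin cells, 9027 in adult-globin cells and 556 in E11.5 erythroid cells. No embryonic-globin cell lacked adult beta-like UMIs, the lowest count being 130, against 7 in the median non-erythroid cell.

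**Figure D2:**
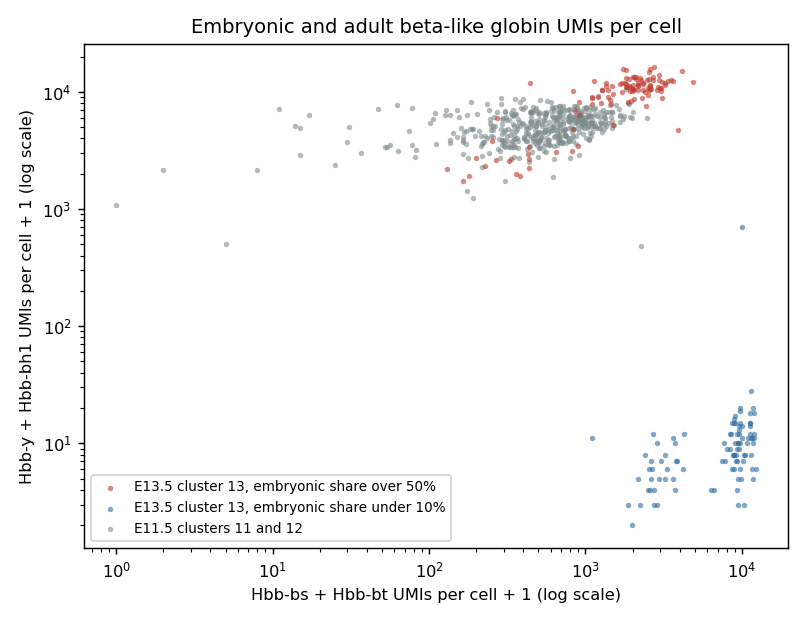
Each point is a cell, placed by its UMIs of the adult beta-like genes Hbb-bs and Hbb-bt (x axis, log scale, plus 1) and of the embryonic beta-like genes Hbb-y and Hbb-bh1 (y axis, log scale, plus 1). Red points are the 111 embryonic-globin cells of E13.5, blue points the 96 adult-globin cells of E13.5 and grey points the 456 erythroid cells of E11.5; the blue points lie far below the others except for the cell with 699 embryonic UMIs.

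Among the single beta-like genes, Hbb-y made up 83.0% of the beta-like UMIs of embryonic-globin cells, 0.107% of those of adult-globin cells and 84.8% of those of E11.5 erythroid cells. Hbb-bh1, the other embryonic gene, made up 0.797%, 0.0937% and 4.27% in the same order of groups. Its share in embryonic-globin cells was thus below that of E11.5, while that of Hbb-y was close to it. The adult-globin sums were 790 UMIs of Hbb-y and 691 of Hbb-bh1, and a single cell held 699 embryonic beta-like UMIs. The median embryonic share of adult-globin cells was 0.107% with Hbb-y alone and 0.108% with both genes. The 0.0937% of Hbb-bh1 is therefore not that of a typical adult-globin cell. Hbb-bs made up 12.1% in embryonic-globin cells, 73.5% in adult-globin cells and 9.09% at E11.5. Hbb-bt made up 4.05%, 26.3% and 1.86% in that order. Hbb-bs and Hbb-bt are near-identical copies, as are Hba-a1 and Hba-a2, and the counting may split reads between them, so sums over each pair are the firmer values.

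The alpha-like genes split the cells in the same way. Hba-x had a median share of 15.6% of the alpha-like UMIs in embryonic-globin cells, ranging from 3.61% to 39.6%. In adult-globin cells the median was 0.0136% and the highest value 0.0999%, so the sets did not overlap, although the sets had been chosen by the beta-like genes alone. At E11.5 the median was 32.4%. Per cell, Hba-x had a median of 1070 UMIs in embryonic-globin cells, 1 in adult-globin cells, 906 at E11.5 and 0 in the other E13.5 cells. Adult alpha-like UMIs had a median of 5988 in embryonic-globin cells, 5126 in adult-globin cells and 2028 at E11.5. The alpha-like over beta-like ratio of UMIs, not corrected for transcript length, was 0.574, 0.593 and 0.523 in these 3 groups. Within the 111 embryonic-globin cells the embryonic shares of the beta-like and alpha-like genes were weakly related (Pearson r = 0.13, Spearman rho = 0.10), and within the 456 E11.5 cells more so (r = 0.48, rho = 0.48). The cells of each set share a library, so these values are descriptions.

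**Figure D3:**
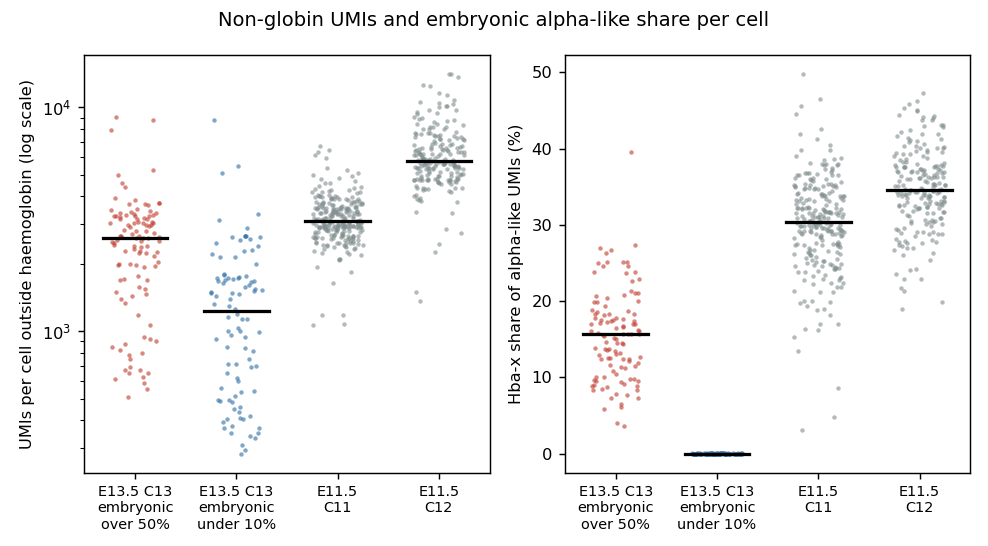
Each point is a cell and each black bar a median, for the embryonic-globin and adult-globin cells of E13.5 cluster 13 and for E11.5 clusters 11 and 12. The left panel gives UMIs outside haemoglobin (log scale; medians 2596, 1226.5, 3108 and 5768) and the right panel the Hba-x share of alpha-like UMIs in percent (medians 15.6%, 0.0136%, 30.4% and 34.6%).

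The sets also differed in depth. Embryonic-globin cells had a median of 22708 UMIs, of which 2596 were outside haemoglobin, and 610 detected genes. Adult-globin cells had medians of 15751 UMIs, 1226.5 outside haemoglobin and 505.5 genes, and E11.5 erythroid cells of 13137, 3958 and 1477. Summed over cells, haemoglobin took 87.5% of the UMIs of embryonic-globin cells, 89.5% in adult-globin cells and 65.7% at E11.5. Each E13.5 set further held a group of shallow cells. There were 17 embryonic-globin cells with 3060 to 7624 UMIs and 94 with 11100 to 33865, and there were 30 adult-globin cells with 1937 to 7683 UMIs and 66 with 10797 to 23642. The shallow and deep cells had similar embryonic shares, with medians of 88.6% and 84.5% among embryonic-globin cells and of 0.153% and 0.0916% among adult-globin cells. Because levels are scaled to the UMIs outside haemoglobin, fewer transcripts of all kinds in a cell cannot be seen in them.

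Malat1, a long non-coding RNA that stays in the nucleus (chr19:5795690-5802672, GRCm38, GENCODE annotation), also differed between the sets, though its counts per cell overlapped. It had 11288 UMIs in embryonic-globin cells, which is 39685 CPM (38957 to 40424), 631 UMIs in adult-globin cells, which is 4571 CPM (4221 to 4942), and 13272 CPM (13116 to 13428) in E11.5 erythroid cells. The median cell had 76 Malat1 UMIs among embryonic-globin cells, 3 among adult-globin cells, 55 among E11.5 erythroid cells and 88 among the other E13.5 cells. Of the 111 embryonic-globin cells 100 had more than 20 Malat1 UMIs, 4 had 5 or fewer and 0 had none, with a range of 1 to 484, whereas 82 of 96 adult-globin cells had 5 or fewer and 10 of them none. Only 4 adult-globin cells had more than 20, between 25 and 138, and these 4 cells held 57.7% of all Malat1 UMIs of the set although they held 16.5% of its UMIs outside haemoglobin. The same 4 cells held 22 of the 36 UMIs of Klf1 and 25 of the 39 UMIs of Hemgn, both regulators of red cell precursors. They also held 6 of the 7 UMIs of Tfrc, the transferrin receptor, and 4 of the 6 of Gata1. Alas2 was at 4357 CPM in these 4 cells and at 18852 CPM in the other adult-globin cells. The ratio of Malat1 between the sets was 8.68 (8.01 to 9.42) with these 4 cells and 17.1 without them. This rise was fixed in advance, since the cells were chosen by Malat1 itself and left out of the adult-globin set alone. The 4 cells were picked out after their values were seen. Further values without them are given wherever a call of a gene described here ended or its value moved by over 1.5 times.

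Outside haemoglobin, the 15 most abundant genes of cluster 13 by UMIs were Fth1, Ftl1, Malat1, Nudt4, Prdx2, Ubb, Oaz1, Alas2, Tpt1, Gpx1, H3f3a, Sec61g, Mkrn1, Car2 and Eif1, with ribosomal protein and mitochondrial genes left aside. Fth1 and Ftl1, the heavy and light chains of the iron store ferritin, took 19.995% of all UMIs outside haemoglobin in cluster 13 and 0.773% in the other E13.5 cells. The share was 25.4% in embryonic-globin cells, 8.93% in adult-globin cells and 7.01% in E11.5 erythroid cells. Ribosomal protein genes took 21.9%, 16.1% and 21.0% of these UMIs in the same 3 groups, and mitochondrial genes 0.667%, 1.95% and 3.05%. Of the 15 genes, Fth1, Ftl1, Malat1 and Nudt4 were higher in embryonic-globin than in adult-globin cells by the rule below, Prdx2, Alas2, Gpx1, H3f3a, Mkrn1 and Car2 were lower, and Ubb, Oaz1, Tpt1, Sec61g and Eif1 were neither.

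Genes outside haemoglobin were compared between embryonic-globin and adult-globin cells, which came from the same library and so shared tissue, stage and preparation. Genes with 20 or more UMIs summed over the sets count as measured. A gene was called higher or lower with a ratio of at least 1.5-fold and an interval that excludes 1, which is a rule of size and not a test. Of 1617 measured genes, 185 (11.4%) were higher and 545 (33.7%) were lower in embryonic-globin cells. The median gene had a log2 ratio of -0.51. Fth1, Ftl1, Malat1 and Nudt4 together took 32.1% of the total in embryonic-globin cells and 9.47% in adult-globin cells, which leaves less of the total for all other genes. Relative to the median gene 331 genes (20.5%) were higher and 294 (18.2%) were lower. With the 4 adult-globin cells rich in Malat1 left out, 202 genes were higher and 418 lower. With only the cells of at least 9000 UMIs, 179 were higher and 493 lower. Tissue markers moved with the sets, at 654 CPM in embryonic-globin and 992 CPM in adult-globin cells for mesenchyme, 622 and 1123 CPM for epithelium and 485 and 1029 CPM for muscle. Their part in the results was not tested.

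The genes of haem synthesis were lower in the embryonic-globin cells nearly throughout. Of 16 listed genes 9 were measured, of which 8 were lower and 0 higher. Their median was -2.44 on the log2 scale, against -0.51 for all measured genes. All 8 were also lower relative to the median gene. Alas2, the erythroid enzyme of the first step (chrX:150547375-150570638, GRCm38), had 6374 CPM (6084 to 6674) in embryonic-globin cells, 16466 CPM (15796 to 17157) in adult-globin cells and 2517 CPM (2449 to 2585) at E11.5, and its ratio between the E13.5 sets was 0.387 (0.364 to 0.412). Fech, which puts iron into haem in the last step, had 1332 CPM in embryonic-globin cells and 7222 CPM in adult-globin cells, a ratio of 0.184 (0.163 to 0.208). Of the steps between, Alad had 257 against 1673 CPM, Urod 214 against 1681 and Cpox 21.1 against 268. With the 4 Malat1-rich cells left out all 8 measured genes of the list were lower, and the ratio of Cpox was 0.174 (0.0547 to 0.481), against 0.0787 (0.0271 to 0.188) with them. Slc25a39, a mitochondrial carrier, and Fam210b, a mitochondrial protein of erythroid cells, were lower too. Tmem14c, which moves a haem precursor within mitochondria, had 16 UMIs in embryonic-globin cells and 4 in adult-globin cells, and was neither higher nor lower.

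Iron genes went both ways. Of 15 listed genes 7 were measured. Hmox1, Fth1 and Ftl1 were higher in embryonic-globin cells, and 3 others, Slc25a37, Glrx5 and Snx3, were lower, or 2 relative to the median gene. Hmox1, haem oxygenase, which breaks down haem (chr8:75093621-75100589), had 474 UMIs and 1666 CPM (1519.8 to 1823) in embryonic-globin cells, 1 UMI and 7.24 CPM (0.183 to 40.4) in adult-globin cells, and 12.9 CPM (8.48 to 18.7) at E11.5. Its ratio between the E13.5 sets was 230 (41.1 to 9105), and 67 of the 111 embryonic-globin cells had a UMI of it. Fth1 had 146570 CPM in embryonic-globin cells and 33787 CPM in adult-globin cells, a ratio of 4.34 (4.21 to 4.47), and Ftl1 had 107099 and 55483 CPM, a ratio of 1.93 (1.88 to 1.98). In the shallow cells alone the ratio of Ftl1 was 1.29 (1.16 to 1.43) and it was not called. The iron importer of mitochondria Slc25a37 had 73.8 CPM in embryonic-globin cells and 927 CPM in adult-globin cells, a ratio of 0.0796 (0.0477 to 0.127). Glrx5, which serves iron-sulphur clusters, had 1009 and 3709 CPM, and Snx3, which recycles the transferrin receptor, had 281 and 579.5 CPM. The receptor Tfrc itself had 2 UMIs in embryonic-globin cells and 7 in adult-globin cells and was not measured.

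Among the regulators of erythroid genes, Tal1 was higher in embryonic-globin cells and Klf1 and Lmo2 were lower, of 7 measured out of 26 listed. As counts these were near the shares of all measured genes, 11.4% higher and 33.7% lower. Tal1 had 87 UMIs and 306 CPM in embryonic-globin cells against 2 UMIs and 14.5 CPM in adult-globin cells, a ratio of 21.1 (5.67 to 177). Lmo2, which joins Tal1 and Gata1 in a complex, went the other way, with 1 UMI against 55 and a ratio of 0.00882 (0.000219 to 0.0513). Klf1, an activator of adult beta-globin and of many red cell genes (chr8:84901928-84905291), had 17.6 CPM in embryonic-globin cells, 261 CPM in adult-globin cells and 399.9 CPM at E11.5. Its ratio between the E13.5 sets was 0.0674 (0.0206 to 0.172). Without the 4 Malat1-rich cells Klf1 was at 121 CPM in adult-globin cells with a ratio of 0.145 (0.0408 to 0.425), but its 19 UMIs were too few to count as measured. Without them Tal1 had 0 UMIs in adult-globin cells, and with 3 UMIs in place of the 0 it was 11.8-fold higher in embryonic-globin cells. Nfe2, Klf3, Foxo3 and Lyl1 were neither higher nor lower. Without the 4 Malat1-rich cells Lyl1, a relative of Tal1, was higher, with 98.4 CPM in embryonic-globin cells and 1 UMI in adult-globin cells, a ratio of 11.4 (1.88 to 464).

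The repressors of embryonic globin were too low to call. Bcl11a had 8 UMIs in embryonic-globin cells and 1 in adult-globin cells. Sox6 had 0 UMIs in embryonic-globin cells, 11 UMIs (79.7 CPM) in adult-globin cells and 10 UMIs (4.77 CPM) at E11.5, and none of its 11 UMIs came from the 4 Malat1-rich cells. A count of 0 in embryonic-globin cells allows up to 10.5 CPM. Gata1, the master factor of the lineage, had 5 UMIs in embryonic-globin and 6 in adult-globin cells.

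Genes of the red cell membrane were lower in embryonic-globin cells for 12 of 14 measured members out of 26 listed, and higher for 1, with a median log2 ratio of -2.21. Relative to the median gene 10 were lower and 1 higher. Leaving out the 4 Malat1-rich cells left 8 of 12 measured members lower and 1 higher, since Epb42 and Kel were no longer called and Slc2a1 and Icam4 were no longer measured. Slc4a1, the anion exchanger band 3, had 243 CPM in embryonic-globin cells, 840 CPM in adult-globin cells and 722 CPM at E11.5, a ratio between the E13.5 sets of 0.289 (0.211 to 0.392). Mpp1, a scaffold of the membrane skeleton, had 42.2 and 1362 CPM, Rhd, a Rhesus protein, 155 and 1311 CPM, and Epb41, protein 4.1, 331 and 1340 CPM in embryonic-globin and adult-globin cells. Cd47, which keeps macrophages from engulfing a cell, had 14.1 and 420 CPM. The member that was higher was Xk, which carries the Kell protein at the membrane, with 383 CPM in embryonic-globin cells and 72.4 CPM in adult-globin cells, a ratio of 5.29 (2.77 to 11.3).

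Genes that serve the clearing of organelles and proteins late in red cell maturation were mixed, with 2 of 18 measured members higher, 10 lower and 6 neither, or 4 higher and 7 lower relative to the median gene. Bnip3l, the receptor by which red cells remove mitochondria, had 3431 CPM in embryonic-globin cells and 5310 CPM in adult-globin cells, a ratio of 0.646 (0.587 to 0.712), and it was not called relative to the median gene. Gabarapl2, of the autophagy machinery, had 450 and 2673 CPM, and the ubiquitin enzymes Ube2l6 and Ube2c had 1090 and 3709 CPM and 151 and 2724 CPM. Ube2c, an enzyme of mitosis, is counted in the list of G2 and M genes as well. Higher were Gabarapl1, with 91.4 and 29.0 CPM, and Dnase2a, a lysosomal enzyme that digests DNA, with 91.4 and 21.7 CPM. Gabarapl1 was not called in the deep cells alone, with a ratio of 2.84 (0.982 to 11.2). Dnase2a without the 4 Malat1-rich cells had 1 UMI in adult-globin cells, a ratio of 10.5 (1.73 to 432) against 4.21 (1.29 to 21.7) with them. Ubb (ubiquitin) and Fam46c, a poly(A) polymerase, were near equal, with ratios of 0.979 (0.925 to 1.04) and 1.03 (0.804 to 1.33).

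Antioxidant and gas transport genes were also mixed, with 5 of 18 measured members higher and 10 lower, or 6 and 8 relative to the median gene. Gpx1, glutathione peroxidase, had 1561 CPM in embryonic-globin cells, 17314 CPM in adult-globin cells and 8026 CPM at E11.5, and its ratio between the E13.5 sets was 0.0902 (0.0813 to 0.0998). Car2, carbonic anhydrase, had 2268 CPM in embryonic-globin cells, 10127 CPM in adult-globin cells and 6091 CPM at E11.5, and Prdx2, the main red cell peroxiredoxin, had 11447, 27093 and 10973 CPM. Higher in embryonic-globin cells were Prdx1, Prdx6, Gpx4, Sod1 and Sod2, of which Gpx4 had 3466 CPM against 2296 CPM and a ratio of 1.51 (1.33 to 1.72). In the deep cells alone Gpx4 was just under the limit of size at 1.495 (1.31 to 1.71). Sod1 was not called without the 4 Malat1-rich cells, with 119.5 CPM in embryonic-globin cells and 60.7 CPM in adult-globin cells. Car1 had 0 UMIs in embryonic-globin cells and 2 in adult-globin cells.

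In the list of glycolysis, Aldoa and Gapdh were higher in embryonic-globin cells, with 742 against 319 CPM and 3256 against 1492 CPM. Of the 11 measured members 3 were lower, Pgam1 and Bpgm among them, and 6 were neither. These counts too were near the 11.4% higher and 33.7% lower of all measured genes. Bpgm makes bisphosphoglycerate, which lowers the oxygen affinity of adult haemoglobin. Bpgm had 2763 CPM in embryonic-globin cells and 5107 CPM in adult-globin cells, a ratio of 0.541 (0.488 to 0.600). Relative to the median gene Bpgm and Pgam1 were not called, and without the 4 Malat1-rich cells Pgam1 was not called.

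Of 7 measured immediate early and heat shock genes 4 were higher in embryonic-globin cells and 0 lower, and the median log2 ratio was 0.83. Jund, Ier2 and Hsp90aa1 were not called, with ratios of 1.03, 1.55 and 1.41. Junb, a subunit of the transcription factor AP-1, had 154 UMIs and 541 CPM in embryonic-globin cells, 1 UMI and 7.24 CPM in adult-globin cells and 35.7 CPM at E11.5, a ratio between the E13.5 sets of 74.7 (13.2 to 2971). The chaperones Hspa8 and Dnaja1 and the phosphatase Dusp1 were the others that were higher. All 10 UMIs of Dusp1 in adult-globin cells came from the 4 Malat1-rich cells. In the deep cells alone Junb had 0 UMIs in adult-globin cells, and with 3 UMIs in place of the 0 it was 21.8-fold higher in embryonic-globin cells. Of 5 measured genes of the integrated stress response 4 were higher and 1 lower. Atf4, its transcription factor, had 288 CPM in embryonic-globin cells and 43.5 CPM in adult-globin cells, and its targets Ddit3, Trib3 and Ppp1r15a had 137 against 36.2, 113 against 7.24 and 900 against 174 CPM, the first value being that of embryonic-globin cells. The member that was lower was the endoplasmic reticulum chaperone Hspa5, with 127 against 297 CPM. Its level in adult-globin cells was under 0.2 of the highest level of any E13.5 cluster. Hspa5 was not called without the 4 Malat1-rich cells, with a ratio of 0.635 (0.366 to 1.12), and the ratios of Ddit3 and Ppp1r15a were 7.91 (2.05 to 67.6) and 10.4 (5.55 to 21.9), against 3.79 (1.49 to 12.3) and 5.18 (3.40 to 8.23) with them. Eif2ak1, the kinase that halts translation when haem is short, had 1 UMI in embryonic-globin cells and 16 in adult-globin cells and was not measured.

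Of the smaller lists, Pim1 was higher and Bcl2l1 lower among 2 measured genes of Epo and Kit signalling, with 531 against 210 CPM and 80.9 against 449 CPM in embryonic-globin and adult-globin cells. Of 2 measured genes of embryonic growth Igf2 was lower and H19 neither. Genes of cell cycle exit were lower for 5 of 7 measured members and higher for 0. Among the lower ones were the cell cycle inhibitor Cdkn1c, with 563 CPM in embryonic-globin cells and 1478 CPM in adult-globin cells, and the cyclin Ccnd2. The list thus holds both inhibitors and cyclins, and its counts give no direction of exit. Of the 4 members with at least 0.2 of the highest level of any E13.5 cluster in the set where they stood higher, 3 were lower. In this list 1 member was higher and 1 lower relative to the median gene. Without the 4 Malat1-rich cells 4 were lower, and Cdkn1c was at 919 CPM in adult-globin cells.

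The remaining genes at the extremes of the comparison between the sets follow a rule of rank by ratio. Highest beside Hmox1, Junb and Tal1 were Pdzk1ip1, a small membrane protein, with 2299 CPM in embryonic-globin cells and 21.7 CPM in adult-globin cells and a ratio of 106 (36.0 to 514), and Nudt4, an enzyme that acts on inositol pyrophosphates, with 27268 and 855 CPM and a ratio of 31.9 (26.6 to 38.6). Fam174b had 485 and 7.24 CPM, the tetraspanin Cd9 327 and 14.5 CPM, the amino acid carrier Slc38a2 334 and 21.7 CPM and Rsrp1 830 and 65.2 CPM. Cited4, a partner of transcription coactivators, had 92 UMIs in embryonic-globin cells and 0 in adult-globin cells. It was 14.9-fold higher with 3 UMIs in place of the 0, and at least 11.9-fold higher by its interval. All of these were also found at E11.5, where Pdzk1ip1 had 631 CPM, Nudt4 2133 CPM and Cited4 685 CPM. Without the 4 Malat1-rich cells Pdzk1ip1 had 1 UMI in adult-globin cells, a ratio of 265 (47.4 to 10489), and Rsrp1 a ratio of 19.1 (8.09 to 59.5), against 12.7 (6.59 to 28.2) with them. In the deep cells alone Fam174b had 0 UMIs in adult-globin cells, and with 3 UMIs in place of the 0 it was 20.8-fold higher in embryonic-globin cells.

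Among the lowest beside Lmo2 were Cmas, which activates sialic acid, Pepd, a peptidase, the ubiquitin-linked genes Ubac1 and Rnf11, and Gmpr, an enzyme of purine conversion. Cmas had 28.1 CPM in embryonic-globin cells and 1717 CPM in adult-globin cells, Ubac1 24.6 and 1065 CPM, Gmpr 14.1 and 579.5 CPM, Rnf11 10.5 and 398 CPM and Pepd 7.03 and 362 CPM. Pepd rests on 2 UMIs in embryonic-globin cells and Rnf11 on 3, with ratios of 0.0194 (0.00229 to 0.0739) for Pepd and 0.0265 (0.00530 to 0.0815) for Rnf11. With cells called G1 alone Pepd was no longer called. Pla2g16, a phospholipase, had 0 UMIs in embryonic-globin cells and 96 in adult-globin cells. It was 65.9-fold lower with 3 UMIs in place of the 0, and at least 52.6-fold lower by its interval.

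**Figure D4:**
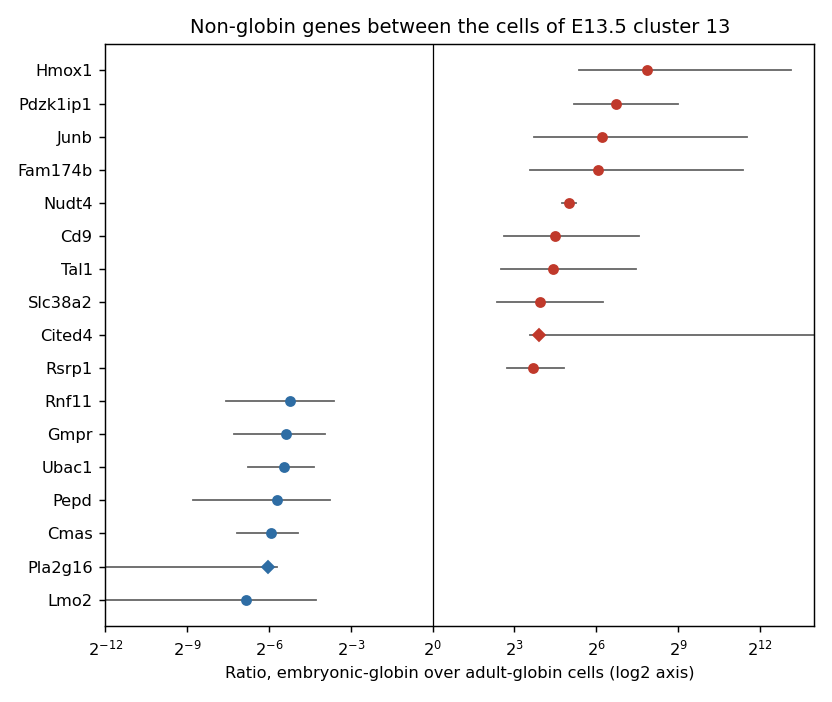
Ratio of the level in embryonic-globin over adult-globin cells of E13.5 cluster 13, on a log2 axis, for the 10 genes with the highest ratios by the naming rule and 7 of the 10 with the lowest. Bars are 95% intervals of counting error, cut at the edge of the plot where they are wider, and diamonds mark bounds against a count of 0 (Cited4 and Pla2g16); Hmox1 stands highest at 230 and Lmo2 lowest at 0.00882.

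Cell cycle genes were low in the embryonic-globin cells. Of 15 measured genes of the G2 and M phases 13 were lower and 0 higher than in adult-globin cells, with a median log2 ratio of -1.74, and 8 were lower relative to the median gene. The list summed to 861 CPM in embryonic-globin cells, 5578 CPM in adult-globin cells and 6529.8 CPM at E11.5. Ube2c, which tags mitotic cyclins for destruction, made up 2724 CPM of the adult-globin sum. The growth marker Mki67 had 24.6, 196 and 239 CPM in these groups, and 14 of its 27 UMIs in adult-globin cells came from the 4 Malat1-rich cells. Of 5 measured genes of the S phase 3 were lower and 0 higher, with 2 lower relative to the median gene, and the list summed to 615, 1224 and 3253 CPM in the same groups. Without the 4 Malat1-rich cells 5 G2 and M genes were still measured, all 5 of them lower, and the list summed to 4249 CPM in adult-globin cells. Cenpf and Cdk1, lower with ratios of 0.324 and 0.291 in all cells, then had 10 and 19 UMIs and ratios of 1.62 (0.324 to 15.7) and 1.52 (0.484 to 6.29). Without these cells 1 of 3 measured S phase genes was lower and the list summed to 1110.0 CPM, and Mki67 was at 113 CPM in adult-globin cells, a ratio of 0.218 (0.0738 to 0.589). With cells called G1 alone the median of the S phase list relative to all genes turned to 0.92. The authors' phase calls put 27.9% (19.8% to 37.2%) of embryonic-globin cells, 62.5% (52.0% to 72.2%) of adult-globin cells and 52.6% (47.9% to 57.3%) of E11.5 erythroid cells in S, G2 or M. Depth moved with these calls. Among embryonic-globin cells 13 of 17 shallow cells and 18 of 94 deep cells were called S, G2 or M, and among adult-globin cells 21 of 30 shallow and 39 of 66 deep cells. Its part in the calls was not tested.

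The shallow and deep cells of a set differed in the levels of some leading genes. Hmox1 was at 1298 CPM in shallow and 1683 CPM in deep embryonic-globin cells. In adult-globin cells Alas2 was at 16294 CPM in shallow and 16486 CPM in deep cells. Larger gaps were found for Malat1 in embryonic-globin cells, with 105378 CPM in shallow and 36709 CPM in deep cells, and for Gpx1 and Car2 in adult-globin cells. Gpx1 had 5689 CPM in shallow and 18650.4 CPM in deep adult-globin cells, and Car2 had 3090.3 and 10937 CPM. In embryonic-globin cells Fth1 had 88424 CPM in shallow and 149204 CPM in deep cells, Ftl1 64006 and 109051 CPM, and Slc4a1 568 and 228 CPM. Prdx2 had 15311 CPM in shallow and 28448 CPM in deep adult-globin cells. In shallow cells alone 210 genes were measured, of which 17 were higher and 55 lower in embryonic-globin cells. There the ratio between the sets was 3.14 (2.80 to 3.53) for Fth1, 0.599 (0.473 to 0.755) for Prdx2, 0.214 (0.114 to 0.374) for Gpx1 and 0.499 (0.275 to 0.872) for Car2. Slc4a1 had 7 UMIs in shallow embryonic-globin cells and 9 in shallow adult-globin cells, a ratio of 0.898 (0.284 to 2.71). These are values of cells from 1 library and were not tested.

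The embryonic-globin cells of E13.5 were also set against the E11.5 erythroid cells, a comparison added after the shares had been seen to fall into 2 sets. At E13.5, 301 (4.37%) of 6886 measured genes stood higher and 2706 (39.3%) lower. The median gene had a log2 ratio of -1.09. Relative to the median gene 866 (12.6%) were higher and 618 (8.97%) lower. Haem and cell cycle genes were mostly lower at E13.5, while both ferritin chains and Hmox1 were higher.

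Of 15 measured genes of haem synthesis 2 were higher and 10 lower, with 4 higher and 6 lower relative to the median gene. Alas2 was higher at E13.5 with a ratio of 2.53 (2.40 to 2.67), although Cpox, with 21.1 CPM at E13.5 and 462 CPM at E11.5, and Alad, with a ratio of 0.105, were lower. Alas2 lies on the X chromosome, and the libraries differed in Xist; its part in the value was not tested. Hmox1 had a ratio of 129 (87.9 to 199), Fth1 of 5.12 (5.06 to 5.18) and Ftl1 of 2.58 (2.55 to 2.62), and these 3 were the iron genes that were higher, against 7 of 15 that were lower, or 1 relative to the median gene. Tfrc had 2 UMIs and 7.03 CPM at E13.5 against 46.2 CPM at E11.5.

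Of 20 measured regulators 3 were higher at E13.5, namely Tal1, Foxo3 and Bach1, a haem-sensing repressor of Hmox1. Lower were 10, with Klf1 at 17.6 CPM at E13.5 and 399.9 CPM at E11.5, a ratio of 0.0440 (0.0142 to 0.103), and Gata1 with a ratio of 0.197 (0.0633 to 0.469). Of the regulators 6 were higher and 5 lower relative to the median gene. Bcl11a was lower with 28.1 against 59.1 CPM. Of 25 measured membrane genes 3 were higher, namely Epb41, Xk and Mpp1, and 19 lower, among them Slc4a1 with a ratio of 0.336 (0.260 to 0.428). Relative to the median gene 4 membrane genes were higher and 6 lower. Mpp1 had 42.2 CPM in embryonic-globin cells against 1362 CPM in adult-globin cells, and was under 0.2 of the highest level of any E13.5 cluster.

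Maturation genes were more often higher than lower. Of 24 measured members 10 were higher and 8 lower, and relative to the median gene 15 were higher and 3 lower. Bnip3l had 3431 CPM at E13.5 against 891 CPM at E11.5, a ratio of 3.85 (3.56 to 4.16), and Fam46c had a ratio of 8.20 (6.67 to 10.1). Map1lc3b, which coats autophagosomes, and Ube2l6 were higher with ratios of 2.32 and 2.96. Of 19 antioxidant and gas transport genes 6 were higher and 9 lower, or 8 higher and 2 lower relative to the median gene, with catalase (Cat) at 359 CPM at E13.5 against 119.6 CPM at E11.5 and Gpx1 lower with a ratio of 0.194 (0.177 to 0.214). Of 17 glycolysis genes 3 were higher, namely Aldoa, Gapdh and Bpgm, and 7 lower, a share near the 39.3% of all measured genes, and relative to the median gene 7 were higher and 1 lower.

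All but 6 of the 32 measured S phase genes and all but 2 of the 33 measured G2 and M genes were lower at E13.5, and 0 were higher in either list. Relative to the median gene 11 and 22 were lower. Rrm2, part of the enzyme for DNA building blocks, had 28.1 CPM at E13.5 and 552 CPM at E11.5, a ratio of 0.0510 (0.0219 to 0.101). The list of cell cycle exit holds both inhibitors and cyclins, and of its 10 measured genes 2 were higher and 3 lower. The inhibitors Cdkn1a and Cdkn1b were higher, with ratios of 4.82 (2.46 to 9.23) and 3.09 (1.49 to 6.08), at 59.8 and 45.7 CPM at E13.5. Only 1 of these 2 inhibitors reached 0.2 of the highest level of any E13.5 cluster. Lower were Ccnd1, Ccnd3 and Cdk4. Relative to the median gene 6 of the 10 genes were higher and 1 lower. Of 10 immediate early and heat shock genes 5 were higher and 2 lower, or 6 and 0 relative to the median gene. Fos had 19 UMIs and 66.8 CPM at E13.5 against 3 UMIs and 1.43 CPM at E11.5, and Junb had a ratio of 15.1 (11.4 to 20.2). Of 10 genes of the integrated stress response 3 were higher, namely Atf4, Ddit3 and Ppp1r15a, and 3 lower, or 5 and 1 relative to the median gene. In the list of Epo and Kit signalling 2 of 9 genes were higher, Stat5a and Pim1, and 1 lower. In that of embryonic growth 1 of 10 was higher, Igf2, and 4 were lower, a share near the 39.3% of all measured genes. Igf2 was under 0.2 of the highest level of any E13.5 cluster, and the part of free RNA in its value was not tested.

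By rank, the highest genes beside Hmox1, Junb and Nudt4 included Sqstm1, the autophagy receptor p62, with 1118 CPM at E13.5 and 115 CPM at E11.5, Bnip3, a mitochondrial receptor of autophagy, with 506 and 59.1 CPM, and Bbc3, the death-promoting protein Puma, with 158 and 15.7 CPM. Further up were the tubulin Tubb2a, the actin-bundling Pls3, the histone Hist1h2al, whose reads may be shared with other histone genes, the class I molecule H2-T23, Slc38a2 and the transcription factor Atf5. The 33 UMIs of Atf5 came from 5 cells. Lowest was Hemgn, an erythroid nuclear protein, with 2 UMIs and 7.03 CPM at E13.5 against 693 CPM at E11.5, a ratio of 0.0102 (0.00123 to 0.0367). The others were Dmtn, dematin of the membrane skeleton, Tspan32, Gmpr, Cdkn3, Ssx2ip, Klf1, Cpox, Dapk2, Tmx1, Rrm2 and the histone chaperone Asf1b, with ratios between 0.0279 and 0.0527 and upper ends of their intervals between 0.0849 and 0.192.

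**Figure D5:**
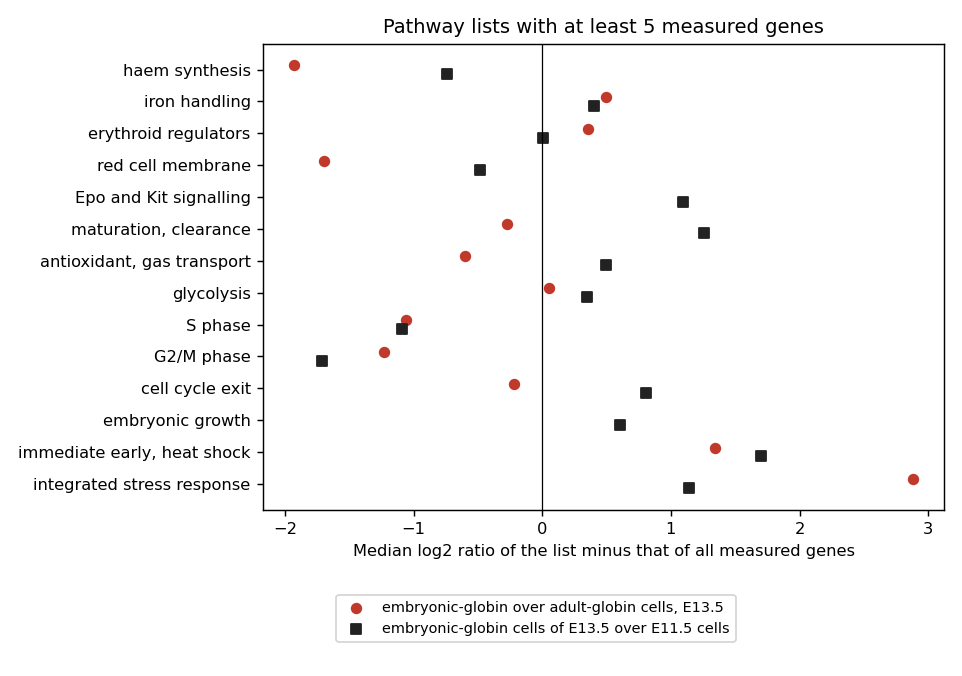
Median log2 ratio of each list of genes minus the median of all measured genes, for lists with at least 5 measured genes. Red circles compare embryonic-globin with adult-globin cells of E13.5 and black squares compare embryonic-globin cells of E13.5 with E11.5 erythroid cells; the haem synthesis, red cell membrane, S phase and G2M lists lie left of 0 in both, and the stress lists right of 0 in both. Both comparisons share the embryonic-globin cells.

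All of cluster 13 against the E11.5 erythroid cells gave 355 higher (5.04%) and 2805 lower genes (39.8%) of 7046 measured, with a median log2 ratio of -0.94, or 1058 higher (15%) and 630 lower (8.94%) relative to the median gene. Since the cluster joins both sets, its leading genes were of separate kinds. Hmox1, Junb, Nudt4, H2-T23 and Tubb2a stood high at E13.5 in the embryonic-globin cells, and in adult-globin cells alone Hmox1, Junb and Nudt4 had log2 ratios over E11.5 of -0.83, -2.30 and -1.32. Mpp1, Tspo2, an erythroid relative of the mitochondrial translocator protein, Pla2g16, Fam220a and Mkrn1 stood high in the adult-globin cells. Mpp1 had 42.2 CPM in embryonic-globin cells, 1362 CPM in adult-globin cells and 11.4 CPM at E11.5, Tspo2 42.2, 1108 and 10.0 CPM, Fam220a 376, 2463 and 92.0 CPM, and Mkrn1, a ubiquitin ligase, 2088, 11917 and 526 CPM. Fam46c was high in both sets, with 703 CPM in embryonic-globin cells, 681 CPM in adult-globin cells and 85.8 CPM at E11.5. Of 24 measured maturation genes 13 were higher and 4 lower over the whole cluster, or 18 and 0 relative to the median gene, and their median log2 ratio was 0.75.

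The genes lowest in the whole cluster were low in both sets. Acp5, an acid phosphatase, had 63.3 CPM in embryonic-globin cells, 21.7 CPM in adult-globin cells and 801 CPM at E11.5. Tmem14c had 56.3, 29.0 and 509.5 CPM and Ermap, a membrane protein of red cells, 14.1, 29.0 and 217 CPM. Knstrn and Hmmr, of the mitotic spindle, Nubp1, Kpna2, Ccdc34, Slc43a3, the complement regulator Cd59b and Emc8 had at most 8 UMIs in all of cluster 13 and ratios between 0.0560 and 0.108. The upper ends of their intervals lay between 0.152 and 0.248. The 5 UMIs of Hmmr came from a single adult-globin cell, and with cells called G1 alone Hmmr was no longer called.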

How the data were processed

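Single cells of 1 E13.5 and 1 E11.5 library were counted by 10x sequencing. Cell Ranger 2.0.0, Seurat 2.3.4 and the build mm10 are named in the submitters' processing notes, with no role or order. The authors deposited raw UMI counts per gene and cell, the mitochondrial share of each cell as a fraction of its UMIs, and a score for S and for G2M with phase calls, per the file headers. Their filters and doublet treatment are not stated in the sources used here. Clusters are the authors' own.

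Counts were summed over cells, and levels (CPM) are UMIs per 1000000 UMIs outside haemoglobin genes. These were 9 genes in the E13.5 counts, and Hbq1a was left out besides in the E11.5 counts. A ratio has an exact conditional binomial (Clopper-Pearson) 95% interval, levels have exact Poisson and shares of cells exact binomial ones, and all cover counting error only. The limit for a count of 0 is 3 UMIs. A gene was measured with 20 UMIs over both groups and called at 1.5-fold with an interval excluding 1. Genes were named by ratio, 12 each way between stages (interval beyond 2-fold) and 10 each way between the E13.5 sets (beyond 1.5-fold), with at least 50 UMIs, 100 CPM in the higher group and 0.2 of the highest level of any cluster of its library. The ranking passed over globin, mitochondrial and ribosomal genes, gene predictions and the genes that tell the sexes apart. The naming rule also held 18 fixed genes, the 15 most abundant genes and the ends of 14 pathway lists. Some genes that the rule picked are not reported here. Genes named beyond it were chosen after their values were seen. Members, lists and limits were chosen with earlier results of these data known. The comparison of embryonic-globin cells with E11.5, the limit of 9000 UMIs and the 4 Malat1-rich cells were chosen after seeing the data. Doublets were kept. Scrublet (scanpy 1.11.5, expected rate 0.05) marked 94 E13.5 (1.49%) and 7 E11.5 cells (0.0986%), the E11.5 number being too few for the caller to have worked, and the highest 5% of scores were left out as an alternative. The lowest UMI count of a deposited cell was 500 at E13.5 and 2253 at E11.5. On simulated counts for the comparison of the E13.5 sets, with 1655 genes measured, 59 of 100 genes changed 2-fold and 94 of 100 changed 4-fold were called. Of the unchanged genes 2.73% were called. The simulated sums had Poisson error alone and no spread between cells, so these rates cover counting error only. Python 3.11.15 with scipy 1.17.1 and, for TMM factors, edgeR 4.0.16 in R 4.3.3 were used. Gene positions are from GENCODE on GRCm38 and promoters from RefSeq on GRCm38.p6.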

Additional observations from a re-analysis of the deposited data

How the results depend on the processing

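No paired analysis was possible because each stage has 1 library. The counts of called genes over E11.5 moved most with the scaling. Those between the E13.5 sets moved most in the shallow cells alone, where fewer genes were measured. They also moved with the scaling and with the minimum of UMIs. The cause was not tested beyond that. For all of cluster 13 over E11.5, against 355 higher and 2805 lower genes, there were 61 and 6350 with haemoglobin kept in the totals, 1058 and 630 with the median gene set to 0, and 748 and 1159 with TMM factors. The lower count was 1851 with cells called G1 alone and 1097 with adult-globin cells alone. For embryonic-globin over adult-globin cells, against 185 and 545, there were 331 and 294 with the median gene set to 0, 365 and 270 with TMM factors, and 302 and 328 with the 4 most abundant genes left out of the totals. In the shallow cells alone, where 210 genes were measured, there were 17 and 55. The lower count was 319 with at least 50 UMIs, 825 with no minimum, 332 with cells called G1 alone, and 352 with the cells split by rank of their share, highest against lowest. For embryonic-globin cells over E11.5, against 301 and 2706, there were 64 and 6048 with haemoglobin kept, 866 and 618 with the median gene set to 0, and 600 and 1155 with TMM factors, and 467 were higher with no minimum. With Hbb-y alone, and with all 7 globin genes, 1 cell lay between 10% and 50%, and with all 7 genes the median share of the cells over 50% was 59.8%. List medians relative to all genes that changed sign were, with no minimum, -0.14 (antioxidant), -0.019 (cell cycle exit) and -0.12 (integrated stress response) for the whole cluster, 0.26 (antioxidant) between the E13.5 sets, where it was 0.15 in shallow cells alone, and -0.21 (cell cycle exit), -0.019 (integrated stress response) and -0.045 (embryonic growth) for embryonic-globin cells over E11.5. Embryonic growth was -0.13 with cells called G1 alone and -0.060 without genes near free RNA. Between the E13.5 sets the S phase list was 0.92 with cells called G1 alone and 0.46 with the split by rank. Over E11.5 with adult-globin cells alone the immediate early list was -0.88, Hmox1 -0.83, Junb -2.30 and Nudt4 -1.32, and H2-T23 and Tubb2a were not called. With embryonic-globin cells alone Pla2g16 had 0 UMIs at E13.5, and with 3 UMIs in place of that count its log2 ratio was -0.056. Of the values of named genes between the E13.5 sets, 303 kept direction and call. Pepd with G1 alone and 10 in shallow cells alone, with under 20 UMIs each, kept direction and lost the call; values with at most 3 UMIs in each group were left out. The shallow adult-globin cells, with a median of 429 UMIs outside haemoglobin, limit what can be seen of genes with few UMIs.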

Other observations

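Erythroid RNA was also found in single cells that the authors placed in other clusters of the E13.5 library. Of the other 6111 cells, 20 had more than 1000 globin UMIs, and 11 of these were in cluster 8, which holds 304 cells. By the embryonic share of beta-like UMIs 12 of the 20 were over 50%, 8 were under 10% and 0 lay between, the same separation as in cluster 13.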
